A study of Mus musculus with 9 samples.

Results

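Immediate early genes are the genes that neurons transcribe first after synaptic activity. The 33 transcripts described here were chosen by name: the listed mouse symbols were matched, by Ensembl identifier without its version number, to the rows of the deposited gene table, and all 33 were found among its 22255 genes. RNA came from synaptoneurosomes, a fraction of frozen hippocampus enriched in pinched-off synaptic terminals, from Fmr1 KO mice of the C57Bl/6J strain. Of the 9 samples, 4 came from mice given AM6545 (replicates A, B, C and E) and 5 from mice given vehicle (replicates A to E), both on a sub-chronic schedule. AM6545 blocks the cannabinoid receptor CB1 and is known for limited entry into the brain. Every animal lacked Fmr1, the gene of the RNA-binding protein FMRP, so the comparison shows AM6545 against vehicle on the mutant background, and wild-type animals are not analysed here. Dose, number of days, age and sex are not given in the sources used here, nor is it stated whether each sample is 1 animal, so the spread between samples may be in part technical.

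In a neuron, synaptic activity raises calcium and cyclic AMP, and kinases then activate factors already present in the nucleus, above all CREB and SRF. These factors switch on immediate early genes without new protein synthesis. Many of the products are transcription factors (the Fos and Jun, Egr and Nr4a families and Npas4) that act on later genes, while others act at the synapse or limit the signal itself. Arc messenger RNA is carried into dendrites and translated there, and in hippocampus Arc, Fos and Egr1 are the usual markers of recently active cells. Their transcripts are short-lived, so a level read in frozen tissue mostly reports the time shortly before the animal was killed. The levels here are those of a synaptoneurosome fraction, and transcription itself was not measured.

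Of the sequence patterns looked for, the half-site of the CREB binding element, TGACG or its reverse complement CGTCA, was found before the most genes. RefSeq (GRCm38.p6) gave the 250 bases before the transcription start for 26 of the 33 genes, and 17 of the 26 (65.4%) held a half-site on either strand. The same letters were present before the start of 19.8% of 27025 RefSeq genes and of 29.2% of the 11274 genes that were both in RefSeq's table and tested here. The full element, TGACGTCA, which contains 2 overlapping half-sites, was before the start of Btg2, Dusp1, Maff, Pcsk1 and Plk2, or 19.2% of the 26, against 1.77% of all RefSeq genes and 2.94% of those tested. The zinc finger motif of the Egr factors, GCGNGGGCG on either strand, was before 8 of the 26 (30.8%), 5.33% of all genes and 10.3% of those tested. The CArG box bound by SRF was before 2 of the 26 (Dusp5 and Egr2), 1.62% of all genes and 1.39% of those tested. The AP-1 motif TGANTCA was before 0 of the 26, 7.82% of all genes and 5.53% of those tested. Sites farther upstream than 250 bases were not looked for, and genes without an entry, Arc and Egr1 among them, were not searched. The promoters of 5 genes that hold half-sites are shown: 3 transcription factors, the most abundant of the transcripts (Plk2) and the one whose groups did not overlap (Rgs2). None of the 9 tested genes whose promoter held no half-site is shown. Capitals mark the half-sites.
Fos (chr12:85473640-85473889, plus strand): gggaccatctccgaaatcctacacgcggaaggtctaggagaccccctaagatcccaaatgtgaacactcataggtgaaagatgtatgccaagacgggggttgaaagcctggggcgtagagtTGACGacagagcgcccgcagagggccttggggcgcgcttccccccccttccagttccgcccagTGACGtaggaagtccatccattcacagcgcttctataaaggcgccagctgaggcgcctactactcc
Npas4 (chr19:4989972-4990221, minus strand): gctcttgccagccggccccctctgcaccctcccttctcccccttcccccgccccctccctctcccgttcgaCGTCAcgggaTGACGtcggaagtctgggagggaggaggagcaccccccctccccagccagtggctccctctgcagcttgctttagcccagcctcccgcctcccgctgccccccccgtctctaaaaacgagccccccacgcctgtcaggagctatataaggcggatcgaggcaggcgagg
Nr4a1 (chr15:101266596-101266845, plus strand): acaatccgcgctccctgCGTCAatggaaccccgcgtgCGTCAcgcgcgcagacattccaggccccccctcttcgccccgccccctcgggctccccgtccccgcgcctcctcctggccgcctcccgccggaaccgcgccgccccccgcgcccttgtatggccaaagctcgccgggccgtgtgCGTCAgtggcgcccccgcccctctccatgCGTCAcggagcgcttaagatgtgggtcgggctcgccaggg
Plk2 (chr13:110394794-110395043, plus strand): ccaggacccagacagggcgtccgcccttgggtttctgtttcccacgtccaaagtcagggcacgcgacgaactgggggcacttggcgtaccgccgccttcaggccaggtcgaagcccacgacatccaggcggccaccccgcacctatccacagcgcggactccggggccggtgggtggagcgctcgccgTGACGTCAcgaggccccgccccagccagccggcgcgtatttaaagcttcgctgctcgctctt
Rgs2 (chr1:144004150-144004399, minus strand): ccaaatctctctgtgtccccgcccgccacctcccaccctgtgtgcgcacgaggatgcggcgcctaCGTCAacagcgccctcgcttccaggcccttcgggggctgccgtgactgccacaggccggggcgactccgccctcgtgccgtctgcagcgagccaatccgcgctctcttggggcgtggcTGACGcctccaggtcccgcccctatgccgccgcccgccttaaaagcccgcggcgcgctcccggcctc
Fos, Npas4 and Rgs2 each held 2 half-sites in this window and Nr4a1 held 4, while in Plk2 the 2 half-sites formed 1 full element. A match to these letters describes the window and does not show binding.

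Libraries held 17628922 to 27263393 counts, and the 33 transcripts took 0.117% to 0.162% of them. Levels are given as CPM, the count scaled to library size with edgeR's TMM factors. The 8 markers of pyramidal and granule neurons were all detected, with sums of 2249 to 2539 CPM in AM6545 and 2093 to 2469 CPM in vehicle samples. Glial RNA was also present: 7 oligodendrocyte markers summed to 13105 to 18822 CPM in AM6545 and 10740 to 22484 CPM in vehicle samples. Markers of choroid plexus, a tissue next to the hippocampus, summed to 60.9 to 937 CPM against 48.0 to 4344 CPM, with none of the 8 at 0 in all samples. In such bulk RNA, fewer cells of a type and less RNA per cell cannot be told apart. Vehicle A and AM6545 E had the lowest summed levels, 1190 and 1242 CPM over the 32 tested against 1340 to 1551 CPM in the 7 other samples. Plk2 made up 19.9% to 29.6% of each sum, and without it Vehicle A (953 CPM) and AM6545 E (938 CPM) were close to Vehicle D (974 CPM) and Vehicle B (993 CPM), with 1157 CPM the highest. By mean log2 CPM over the 32, Vehicle D (4.05) was below Vehicle A (4.06). Vehicle A and AM6545 E also had the highest sums of oligodendrocyte markers. Their sums of 11 heat shock genes were the lowest (4708 CPM in Vehicle A and 4395 CPM in AM6545 E, against 5575 to 7917 CPM elsewhere). Vehicle E and Vehicle C were highest by mean log2 CPM (4.32 and 4.27). They had the lowest sums of 8 astrocyte markers (2439 and 2276 CPM, against 2494 to 3432 CPM elsewhere). Their sums of 8 microglia markers were also the lowest (783 and 638 CPM, against 870 to 1119 CPM elsewhere). The part of these differences in the results was not tested.

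**Figure D1:**
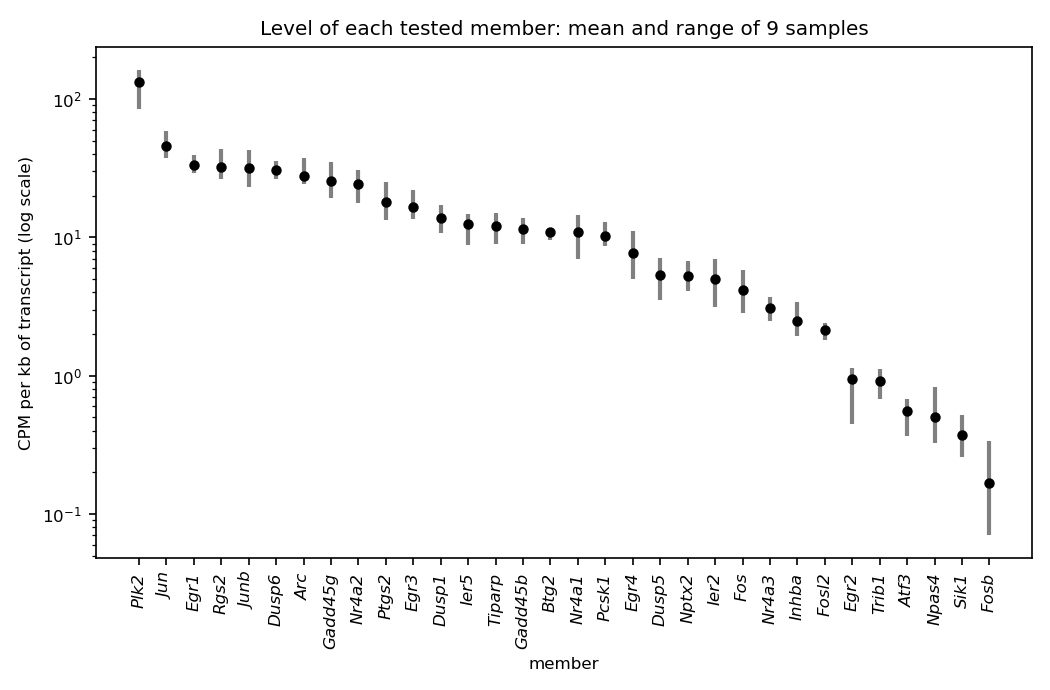
Level of each of the 32 tested transcripts in CPM per kilobase of transcript (log scale), ordered by mean; points are means over the 9 samples and bars run from the lowest to the highest sample. Plk2 stood above all others at 133 CPM per kilobase, and Fosb was lowest at 0.168.

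Between genes, levels were compared per kilobase of transcript, with lengths from GENCODE M21. Plk2, a kinase that weakens synapses after prolonged activity, was highest at 133 ± 24.9 CPM per kilobase (SD, n = 9), and its lowest sample lay above the highest sample of every other transcript. Jun followed at 45.3 ± 7.08, then Egr1 at 33.4 ± 3.94, Rgs2 at 32.3 ± 5.36, Junb at 31.8 ± 6.45, Dusp6 at 30.8 ± 3.32 and Arc at 27.9 ± 3.91 CPM per kilobase (SD, n = 9 each). Fos, the best known of the family, was far lower, at 4.13 ± 0.928 CPM per kilobase (SD, n = 9). Npas4 was at 0.498 ± 0.182, Sik1 at 0.372 ± 0.0909 and Fosb at 0.168 ± 0.0807 CPM per kilobase (SD, n = 9 each). The order was not sharp: in 29 of the 31 pairs of neighbours the ranges over samples overlapped, the exceptions being Plk2 above Jun and Fosl2 above Egr2. Egr2 is placed with less certainty, because its median annotated transcript is only 902 bases long. Maff, a small leucine zipper protein, was close to absent, with 0 counts in AM6545 B and at most 8 counts in any library, and fell under the count filter. The other 32 passed it.

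No immediate early or activity-regulated transcript passed the threshold between AM6545 and vehicle. By edgeR's quasi-likelihood test, 0 of 32 had an adjusted p under 0.05, where 0 of all 14512 genes tested (0%) did, and the smallest adjusted p among the 32 was 0.653. Of the 32, 16 were higher and 16 lower in AM6545 samples, and their median log2 fold change was -0.013, beside -0.0090 over all genes tested. The split moved with single libraries: without AM6545 A, 11 were higher and 21 lower (median -0.046), and without Vehicle E, 21 were higher and 11 lower (median 0.051). At an unadjusted p under 0.05 there was 1 of the 32, Rgs2, beside 7.21% of all genes tested. The group ranges of CPM did not overlap for 1 of the 32, Rgs2 again, where 1.45% of all genes tested had such ranges. The mean log2 CPM over the 32 was 4.16 ± 0.11 (SD, n = 4) with AM6545 and 4.17 ± 0.12 (SD, n = 5) with vehicle. The difference of -0.0071 was smaller than the spread between samples.

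The intervals of the differences give the size of change these samples could still hold. For 26 of the 32, the 95% interval of edgeR's log2 fold change lay within a 1.5-fold change in either direction, as it did for 73.5% of all genes tested. For 31 of the 32 it lay within a 2-fold change. The transcripts whose intervals reached past 1.5-fold were Fosb, Atf3, Egr2, Npas4, Sik1 and Egr4; the first 5 of these had under 2 CPM on average. Arc's interval ran from -0.30 to 0.22, Egr1's from -0.24 to 0.25 and Fos's from -0.54 to 0.28 on the log2 scale. Missing the threshold does not show that the groups were alike, and for Fosb the interval, from -1.33 to 0.44, bounds little.

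**Figure D2:**
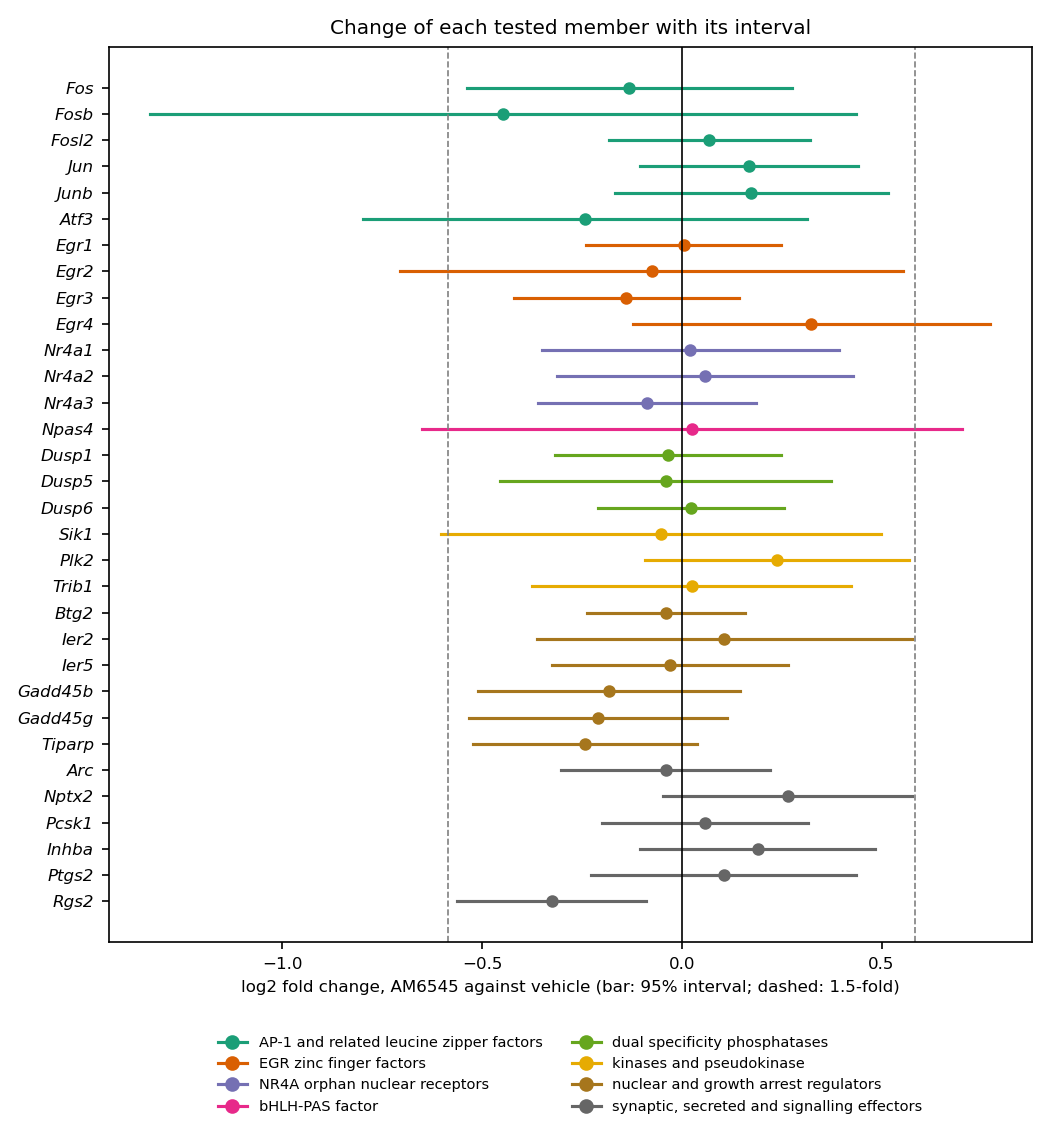
log2 fold change of the 32 tested transcripts, AM6545 against vehicle, with the 95% interval of edgeR's quasi-likelihood fit; colours mark the role and dashed lines a 1.5-fold change. Rgs2 is the transcript whose interval (-0.56 to -0.091) does not reach 0, and none has an adjusted p under 0.05.

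The leucine zipper factors pair with each other as the AP-1 complex: Fos, Fosb and Fosl2 with Jun or Junb, while Atf3 is a related, stress-induced factor. Of the 6 tested, 3 were higher and 3 lower, and 0 passed the test. Fos (ENSMUSG00000021250.14) was at 9.36, 8.77, 6.91 and 8.06 CPM in AM6545 A, B, C and E and at 8.90, 5.93, 10.9, 7.40 and 12.2 CPM in vehicle A to E. Vehicle samples held both the lowest and the highest Fos level, so the AM6545 samples lay inside the vehicle range. Its log2 fold change was -0.13 (SE 0.19, edgeR adjusted p = 0.851).

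Fosb, whose splice form ΔFosB builds up with repeated stimulation, was the most variable transcript over the 9 samples. It had 0.517, 0.678, 0.429 and 0.358 CPM in AM6545 A, B, C and E and 1.21, 0.512, 0.863, 0.254 and 0.630 CPM in vehicle A to E. These rest on only 6 to 21 counts a library, and again vehicle samples lay at both ends. Its log2 fold change was -0.45 (SE 0.41, edgeR adjusted p = 0.757), and ran from -0.66 without Vehicle D to -0.17 without Vehicle A. Fosl2, in contrast, was among the steadiest, at 12.2, 15.5, 14.6 and 14.7 CPM in AM6545 A, B, C and E and at 11.9, 13.7, 15.7, 12.3 and 14.2 CPM in vehicle A to E. Jun ranged from 126 to 187 CPM in AM6545 and from 119 to 169 CPM in vehicle samples, with log2 fold change 0.17 (SE 0.13, edgeR adjusted p = 0.714), which was 0.063 without AM6545 B and 0.26 without AM6545 E. Junb ranged from 42.1 to 77.7 CPM in AM6545 and 42.6 to 67.6 CPM in vehicle samples; its exons overlap Prdx2 on the other strand, so part of its count is uncertain. Atf3, at 0.715 to 1.32 CPM over all samples, had 17 to 34 counts.

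The Egr factors bind GC-rich promoters through zinc fingers, and Egr1 is needed for lasting forms of hippocampal plasticity. Of the 4, 2 were higher and 2 lower, and 0 passed the test. Egr1 (ENSMUSG00000038418.8) was at 146, 125, 122 and 111 CPM in AM6545 A, B, C and E and at 114, 118, 148, 109 and 139 CPM in vehicle A to E. The group means were 126 ± 14.6 CPM (SD, n = 4) and 126 ± 16.7 CPM (SD, n = 5). Egr1 had the smallest difference of the 32, with log2 fold change 0.0042 (SE 0.11, edgeR adjusted p = 0.993).

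Egr4 had the highest log2 fold change of the 32 with all samples in, 0.32 (SE 0.21, edgeR adjusted p = 0.676). It was 0.18 without AM6545 B, where Inhba (0.25) and Nptx2 (0.25) were higher, and 0.52 without AM6545 E. It was at 23.3, 24.0, 16.7 and 10.8 CPM in AM6545 A, B, C and E and at 12.1, 13.0, 12.9, 18.5 and 17.8 CPM in vehicle A to E. AM6545 A and B lay above every vehicle sample and AM6545 E below every one, so the treated group itself was split. Egr3, at 36.8 to 46.4 CPM in AM6545 and 36.7 to 60.3 CPM in vehicle samples, had a log2 fold change of -0.14 (SE 0.13, edgeR adjusted p = 0.762), which ran from -0.22 without Vehicle D to -0.031 without Vehicle C. Egr2 ranged from 0.773 to 0.974 CPM in AM6545 and from 0.404 to 1.02 CPM in vehicle samples, with 7 to 27 counts a library.

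Npas4 responds to calcium entry more selectively than the other factors and shapes the inhibitory synapses of a cell. It was at 1.71, 3.01, 1.37 and 1.19 CPM in AM6545 A, B, C and E and at 1.79, 2.23, 2.54, 1.18 and 1.22 CPM in vehicle A to E. AM6545 B was highest and the others overlapped fully; the log2 fold change was 0.026 (SE 0.32, edgeR adjusted p = 0.985), and -0.33 without AM6545 B. The Nr4a genes encode nuclear receptors that act without a known ligand. Nr4a1 ranged from 24.6 to 30.5 CPM in AM6545 and 17.2 to 35.7 CPM in vehicle samples, and Nr4a3 from 13.3 to 19.8 CPM against 15.3 to 19.9 CPM. Nr4a2 was at 102, 101, 67.0 and 68.5 CPM in AM6545 A, B, C and E, so that 2 treated samples lay at the top and 2 near the bottom of the vehicle range of 60.1 to 104 CPM. None of the 3 passed the test (edgeR adjusted p from 0.853 to 0.978).

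**Figure D3:**
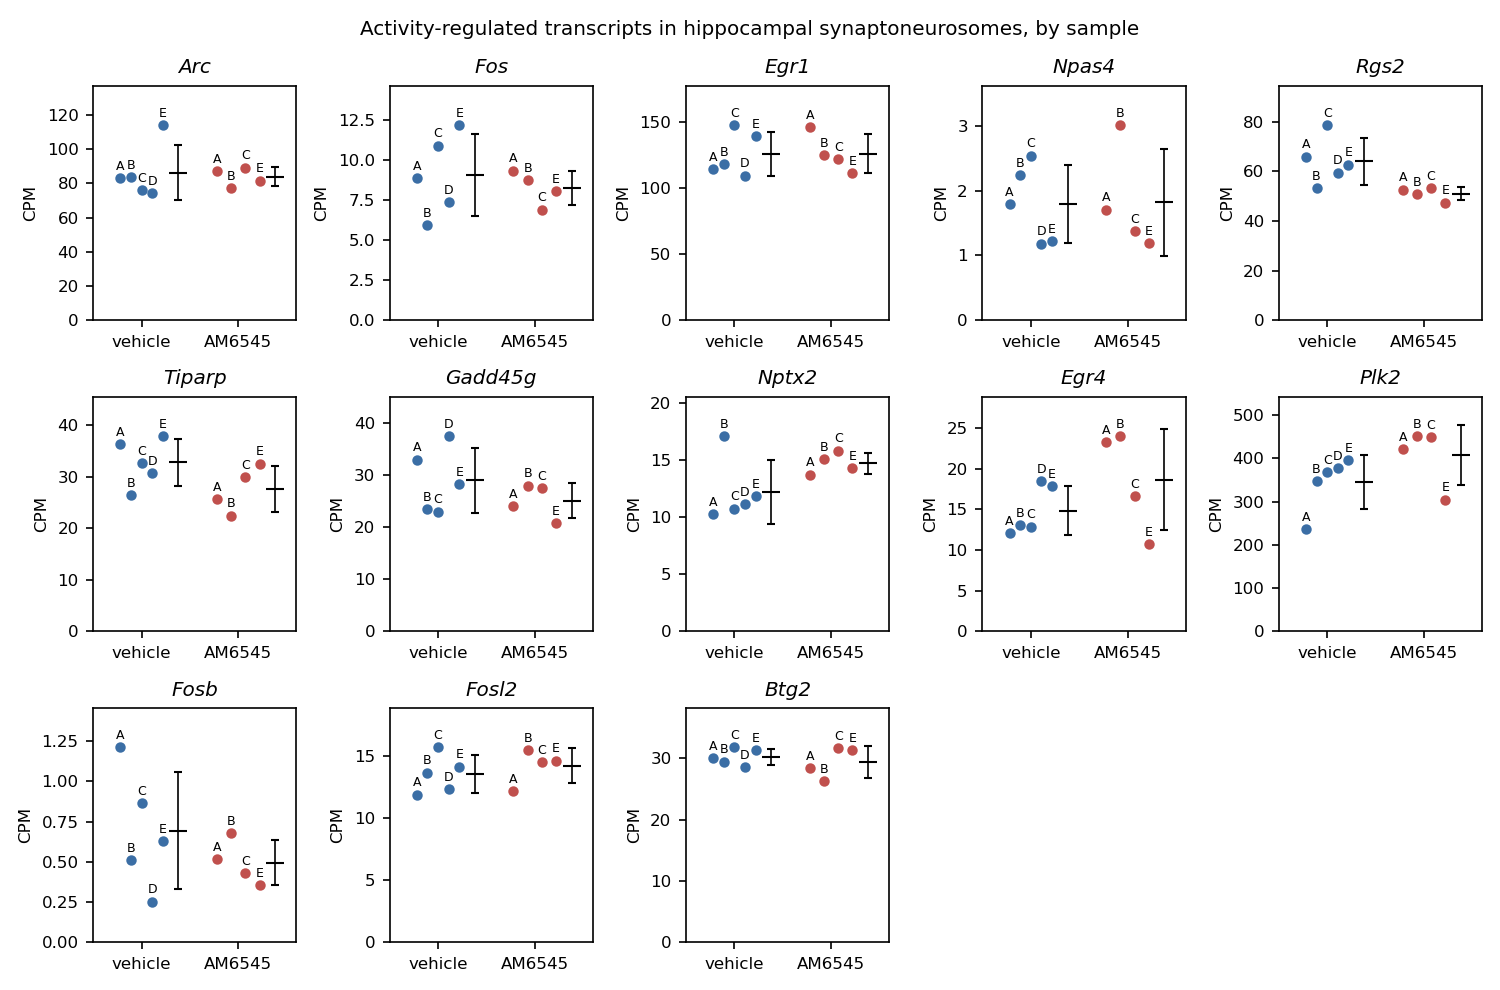
CPM in every sample (points, lettered by replicate) for the 13 transcripts given sample by sample, with group mean and SD beside them; each axis starts at 0. The groups overlap in every panel except that of Rgs2, where the 4 AM6545 samples lie between 47.4 and 53.1 CPM and the 5 vehicle samples between 53.3 and 78.6 CPM.

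Among the genes that damp or relay kinase signals, Dusp1, Dusp5 and Dusp6 encode phosphatases that switch off MAP kinases. Their log2 fold changes were -0.035, -0.041 and 0.024, and each of the 3 intervals included 0. The level of Dusp1 is uncertain, because its exons overlap Ergic1 on the other strand. Exons of Dusp5, Jun and Tiparp also overlap gene models on the other strand in GENCODE M21, and these models are not analysed here. Plk2 (ENSMUSG00000021701.9) was at 422, 452, 450.0 and 305 CPM in AM6545 A, B, C and E and at 237, 348, 368, 377 and 395 CPM in vehicle A to E. AM6545 A, B and C lay above every vehicle sample, while AM6545 E lay below all of them but Vehicle A. The log2 fold change was 0.24 (SE 0.15, edgeR adjusted p = 0.676), and it was 0.13 without Vehicle A and 0.35 without AM6545 E. Sik1, a kinase that restrains CREB's coactivators, had 23 to 59 counts a library, and Trib1, a pseudokinase, 49 to 105. Their log2 fold changes were -0.052 (SE 0.26) and 0.024 (SE 0.19).

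Of the 6 nuclear and growth arrest regulators, 1 was higher and 5 lower, beside 48.2% higher over all genes tested, and 0 passed the test. Their median log2 fold change was -0.11. Of the 5 lower, Btg2 (-0.040, SE 0.092) and Ier5 (-0.031, SE 0.14) turned sign with 1 sample left out, to 0.011 without AM6545 B and 0.097 without AM6545 E. Tiparp (ENSMUSG00000034640.10), an ADP-ribosyltransferase, was at 25.7, 22.5, 29.9 and 32.5 CPM in AM6545 A, B, C and E and at 36.2, 26.4, 32.7, 30.6 and 37.9 CPM in vehicle A to E. Only AM6545 A and B lay below every vehicle sample, and its log2 fold change was -0.24 (SE 0.13, edgeR adjusted p = 0.653), or -0.15 without AM6545 B. Gadd45g, of a family of stress sensors, was at 24.0, 28.0, 27.6 and 20.7 CPM in AM6545 A, B, C and E and at 32.99, 23.4, 23.0, 37.5 and 28.2 CPM in vehicle A to E. Its group ranges overlapped, and its log2 fold change was -0.21 (SE 0.15, edgeR adjusted p = 0.701), or -0.100 without Vehicle D and -0.13 without AM6545 E. Gadd45b ranged from 8.94 to 13.0 CPM in AM6545 and 9.19 to 14.0 CPM in vehicle samples. Btg2, a brake on cell division, was the steadiest transcript of all, at 28.3, 26.3, 31.6 and 31.3 CPM in AM6545 A, B, C and E and at 29.98, 29.4, 31.8, 28.5 and 31.3 CPM in vehicle A to E. Ier2 and Ier5, small nuclear proteins, had log2 fold changes of 0.11 (SE 0.22) and -0.031 (SE 0.14), and both were lowest in AM6545 E.

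Of the effectors that work at or near the synapse, 4 were higher and 2 lower, with 0 past the test. Arc (ENSMUSG00000022602.15), which draws AMPA receptors into the cell, was at 87.4, 77.2, 89.2 and 81.6 CPM in AM6545 A, B, C and E and at 83.0, 83.5, 76.2, 74.2 and 114 CPM in vehicle A to E. All samples but Vehicle E lay between 74.2 and 89.2 CPM. The means were 83.8 ± 5.49 CPM (SD, n = 4) and 86.2 ± 16.1 CPM (SD, n = 5), and the log2 fold change was -0.041 (SE 0.12, edgeR adjusted p = 0.939). Without Vehicle E it was 0.081, so its sign depended on that sample. Nptx2, a secreted pentraxin that gathers AMPA receptors, was at 13.7, 15.1, 15.8 and 14.3 CPM in AM6545 A, B, C and E and at 10.3, 17.1, 10.8, 11.2 and 11.9 CPM in vehicle A to E. All 4 AM6545 samples lay above 4 of the 5 vehicle samples, and Vehicle B lay above all 4. The log2 fold change was 0.26 (SE 0.15, edgeR adjusted p = 0.653), and 0.42 without Vehicle B (edgeR adjusted p = 0.320). Inhba, a subunit of activin, ranged from 9.15 to 13.5 CPM in AM6545 and 7.68 to 9.93 CPM in vehicle samples. Ptgs2, the inducible enzyme of prostaglandin synthesis, ranged from 32.1 to 59.9 CPM against 35.4 to 47.2 CPM, and Pcsk1, which cuts prohormones, from 23.8 to 35.3 CPM against 24.6 to 31.7 CPM.

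Rgs2 (ENSMUSG00000026360.10) was the transcript whose groups separated. Its protein speeds GTP hydrolysis by G proteins and so shortens signalling from their receptors. It was at 52.7, 50.9, 53.1 and 47.4 CPM in AM6545 A, B, C and E and at 65.9, 53.3, 78.6, 59.4 and 62.7 CPM in vehicle A to E. The gap between the groups was narrow, 53.1 CPM in AM6545 C against 53.3 CPM in Vehicle B, and the highest level was that of Vehicle C. Means were 51.0 ± 2.61 CPM (SD, n = 4) and 64.0 ± 9.41 CPM (SD, n = 5). The log2 fold change was -0.33 (SE 0.11), with a 95% interval from -0.56 to -0.091. With an edgeR adjusted p of 0.653 it did not pass the threshold, and over the 18 alternatives the adjusted p ran from 0.320 to 0.920 while the log2 fold change ran from -0.38 to -0.24. Among all genes tested, 4.18% were lower at an unadjusted p under 0.05 and 0.868% had AM6545 samples all below the vehicle samples, and 1 of 32 is read against those shares. The smallest difference, -0.24, was that without Vehicle C.

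**Figure D4:**
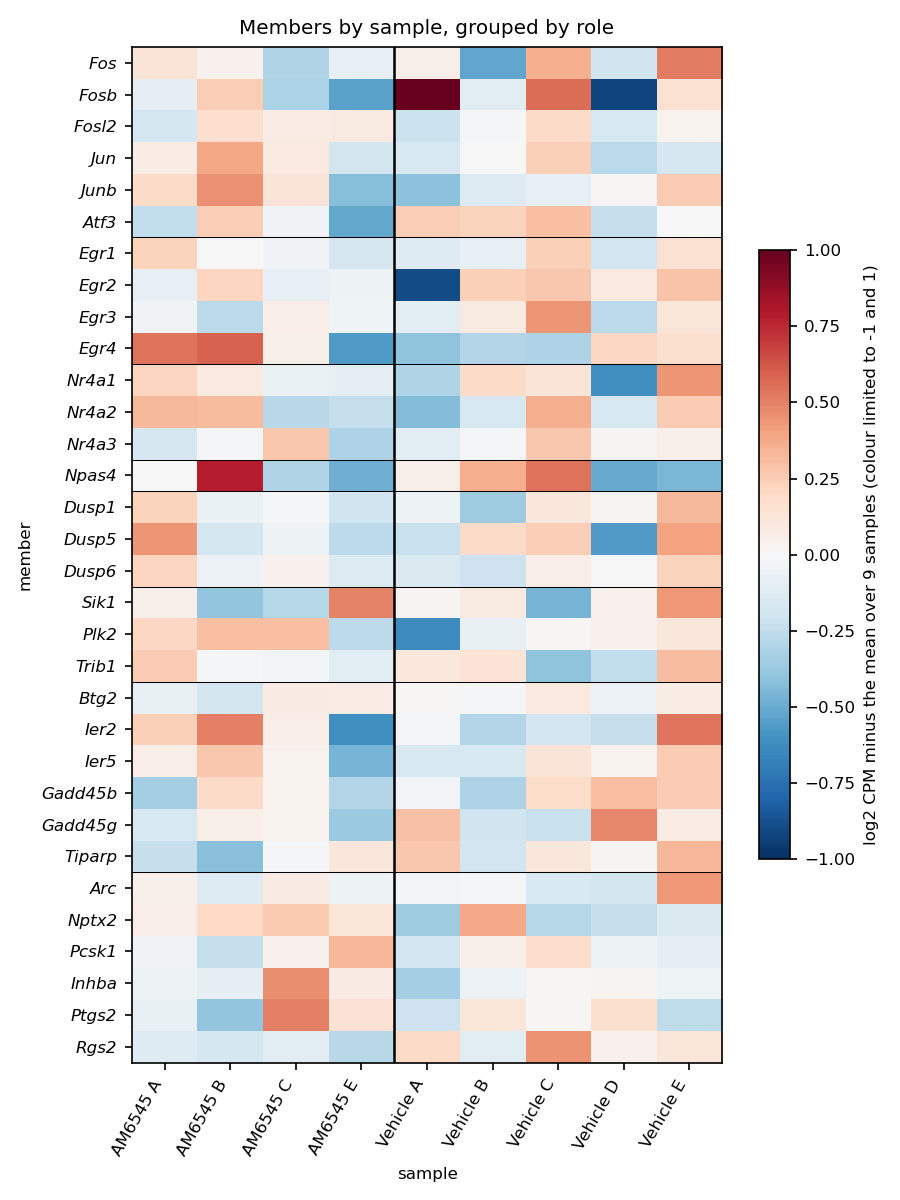
log2 CPM of each tested transcript (grouped by role) in each sample, minus its mean over the 9 samples; red is higher and blue lower, with colour limited to -1 and 1, and the vertical line separates AM6545 from vehicle. Vehicle E is above the mean for 26 of the 32 and Vehicle C for 24, AM6545 E for 8, and only Rgs2 has all 4 AM6545 samples below all 5 vehicle samples.

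Samples of one group differed from each other across many of the transcripts. Vehicle E was the highest of the 9 samples for 9 of the 32 and Vehicle C for 8. AM6545 E was the lowest for 8, Vehicle D for 8 and Vehicle A for 6. The mean log2 CPM over the 32 ran from 3.998 in AM6545 E to 4.24 in AM6545 B, and from 4.05 in Vehicle D to 4.32 in Vehicle E, so each group covered nearly the same span. The median SD of log2 CPM within groups was 0.25 over the 32 and 0.20 over all genes tested, and 23 of the 32 lay above the latter. Among transcripts with a mean of at least 10 CPM, the median SD was 0.22 for 23 of these genes and 0.17 for 9484 of all genes. Fosb (0.59), Npas4 (0.51), Egr4 (0.41) and Ier2 (0.40) had the widest spread within groups, and Btg2 (0.096) and Fosl2 (0.16) the narrowest. The 16 tested transcripts with a CREB half-site before the start had a median SD of 0.32, and the 9 others with a RefSeq promoter 0.22. With a mean of at least 10 CPM these were 0.29 (11 genes) and 0.23 (8 genes). For the full CREB element the order was the other way, 0.20 (4 genes with it) and 0.27 (21 without). For the Egr motif the medians were 0.25 (7 with) and 0.27 (18 without), and for the CArG box 0.38 (2 with) and 0.25 (23 without). The part of these sites in the spread was not tested.

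**Figure D5:**
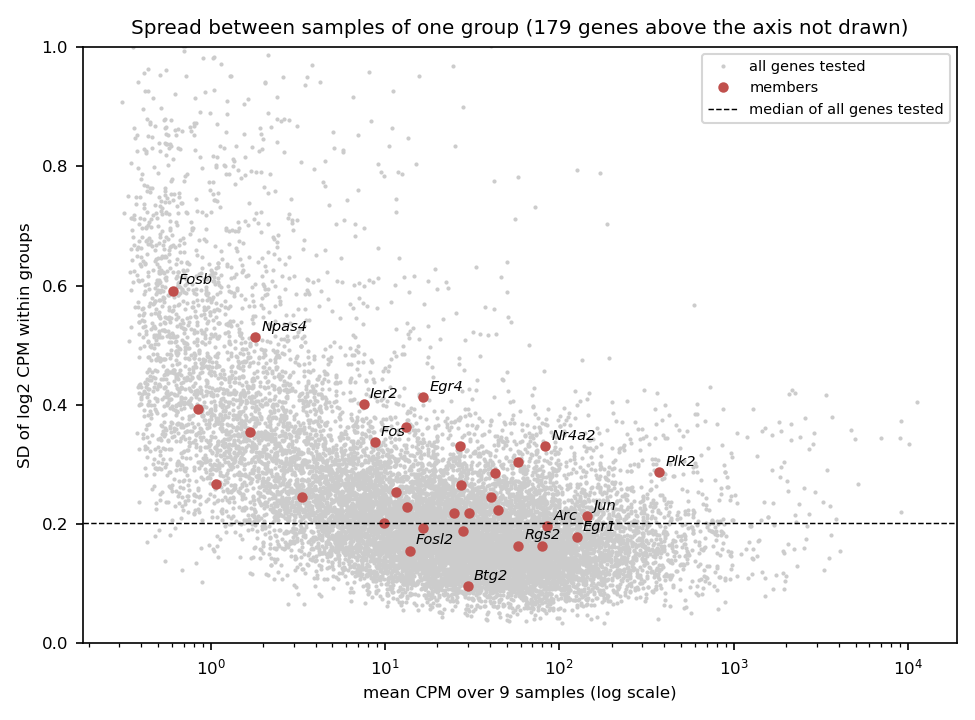
SD of log2 CPM within groups against mean CPM (log scale) for all 14512 genes tested (grey) and the 32 transcripts (red); the dashed line is the median of all genes tested, 0.20, and 179 genes above the axis are not drawn. Of the 32 red points 23 lie above the line, Fosb and Npas4 at low levels and Egr4 and Nr4a2 at higher ones.

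These transcripts also tended to deviate together. Over the 496 pairs of the 32, the median correlation of their deviations from the group means across the 9 samples was 0.20, with 66.1% of pairs above 0, while over all pairs of the 14512 genes tested it was -0.007 with 49.4% above 0. All transcripts of a sample share its library and scaling factor, so the values are descriptions without a test. The median of the 32 was 0.27 with total counts in place of the TMM factor, and from 0.16 (without Vehicle E) to 0.27 (without Vehicle B) with 1 sample left out. The median over all genes tested was not computed in these settings, so these values have no background beside them. The phosphatases Dusp1, Dusp5 and Dusp6 had a median pairwise correlation of 0.57, the leucine zipper factors 0.37, the Egr factors 0.35 and the Nr4a receptors 0.25. The median was 0.11 for the effectors, 0.068 for the nuclear and growth arrest regulators and -0.017 for the kinases and pseudokinase, where 33.3% of pairs were above 0. Dusp1 with Dusp6 (0.96), Junb with Ier5 (0.95) and Nr4a1 with Dusp5 (0.91) were the closest pairs. Jun with Sik1 (-0.83), Ier2 with Pcsk1 (-0.80) and Egr3 with Gadd45g (-0.76) were the most opposed. All are extremes picked from 496 pairs. Sik1 (-0.20), Ptgs2 (-0.18), Pcsk1 (-0.14), Gadd45g (-0.094) and Tiparp (-0.028) had median correlations to the other transcripts below 0, the last of them close to 0.

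Arc, Fos, Egr1 and Npas4 were also set against each other across the 9 samples in 6 tests chosen after the data were seen. Fos and Egr1 had the closest relation (Pearson r = 0.68, exact permutation p = 0.0457, adjusted over the 6 pairs 0.274). Spearman's rho for that pair was 0.65 (exact permutation p = 0.0666, adjusted 0.398). Without Vehicle B and Vehicle E, the samples farthest from the median of Fos, r was 0.73. For the other 5 pairs r lay between -0.42 and 0.41, rho between -0.12 and 0.55, and the adjusted exact permutation p was at least 0.493 for r and at least 0.398 for rho. Arc and Fos, at r = 0.41 and rho = 0.12, went to r = -0.51 without Vehicle E and Vehicle D, so that relation rested on those samples. Fos and Npas4 went from r = 0.026 (rho = 0.13) to r = 0.70 without Vehicle B and Vehicle E.

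Other genes, of the pathway and of the heat shock response, were read from lists chosen with earlier results of these data known. Counts over these lists are descriptions. Of 30 further activity-regulated genes 29 were tested: 14 were higher, 15 lower and 0 passed the threshold, with a median log2 fold change of -0.031. At an unadjusted p under 0.05 there were 2 of the 29, both higher. Of all genes tested, 7.21% were at that level in either direction and 3.03% were higher. Sorcs3, a sorting receptor, was at 51.2, 60.5, 71.3 and 72.8 CPM in AM6545 A, B, C and E and at 47.1, 52.9, 46.1, 55.5 and 50.7 CPM in vehicle A to E, with AM6545 A inside the vehicle range and log2 fold change 0.34 (SE 0.11, edgeR adjusted p = 0.653). Vgf, a neuropeptide precursor, was at 107, 96.3, 93.5 and 102 CPM in AM6545 A, B, C and E, and at 65.9, 101, 70.7, 69.1 and 78.7 CPM in vehicle A to E, with log2 fold change 0.37 (SE 0.12, edgeR adjusted p = 0.653). For Vgf, Vehicle B lay among the treated samples.

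Of 36 genes for the signalling and factors upstream of immediate early genes, among them Creb1, Srf, the MAP kinases and calcineurin, all were tested. In AM6545 samples 25 were higher and 11 lower, beside 48.2% higher over all genes tested, with a median log2 fold change of 0.070, and 0 passed the threshold. At an unadjusted p under 0.05 there was 1 of the 36, beside 7.21% of all genes tested. This was Mrtfa, a coactivator of SRF, at 32.5, 29.7, 27.6 and 21.4 CPM in AM6545 A, B, C and E and at 19.2, 23.8, 21.4, 18.4 and 24.9 CPM in vehicle A to E. Its log2 fold change was 0.37 (SE 0.13, edgeR adjusted p = 0.653), with AM6545 E inside the vehicle range. All 11 heat shock genes were tested, with 8 higher and 3 lower beside 48.2% higher over all genes tested, and 0 passed the threshold. An unadjusted p under 0.05 was found for 3 of the 11, 2 higher (Hspa1a and Hspa1b) and 1 lower (Hspe1), beside 7.21% of all genes tested. The list was chosen with earlier results of these data known, so the count is a description. Hspa1a was at 40.1, 52.3, 33.6 and 21.1 CPM in AM6545 A, B, C and E and at 17.9 to 25.9 CPM in vehicle samples, and Hspa1b at 51.3, 57.7, 37.4 and 23.2 CPM against 21.3 to 31.4 CPM. Hspa1a and Hspa1b are near-identical copies, so the split of reads between them is uncertain and they do not count as 2 separate results. Hspe1 was at 52.9 to 59.0 CPM against 57.5 to 94.0 CPM. Among the 4 AM6545 samples, Hspa1a and Hspa1b were highest in B and lowest in E, as were 10 of the 32 transcripts (Fosb, Jun, Junb, Atf3, Egr4, Npas4, Plk2, Ier2, Ier5 and Gadd45g). The part of the heat shock genes in the levels of those transcripts was not tested. The share of all genes tested that were highest in B and lowest in E is not given here, so the count of 10 has no background beside it.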

How the data were processed

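The members, gene lists and tests were chosen with earlier results of these data known. Per the labels' protocols, SMARTer low-input libraries were read on a NovaSeq. The authors' deposited table holds estimated counts per gene; Salmon 1.3 and DESeq2 1.30, with the builds GRCm39 and mm10, are named in the submitters' processing notes without a role. Strand setting and annotation release are not given in the sources used here. The count table was rounded to whole numbers. Symbols were matched for 22155 of 22255 identifiers; 22144 had another version than in GENCODE M21, which was used for names, length and exon overlap, with no coordinates taken from it. Genes were kept by filterByExpr (14512), scaled by TMM, and compared with edgeR 4.0.16 (R 4.3.3), quasi-likelihood F-test, Benjamini-Hochberg adjustment over all genes tested, threshold 0.05. Standard errors are the absolute log2 fold change over the square root of F. log2 CPM used a prior count of 2. The test was tried on simulated data. Correlations were tested with scipy 1.17.1. Alternatives used DESeq2 1.42.0 and limma 3.58.1 (voom with sample weights). All 36 sample pairs differed by more than counting noise (chi-square over its degrees of freedom, 10.3 to 93.3). Sample values are printed for Arc, Fos, Egr1 and Npas4, the 3 smallest p in each direction, transcripts whose groups do not overlap, and the 2 largest and 2 smallest SDs over the 9 samples. In related lists, genes at an unadjusted p under 0.05 (at most 3) are named.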

Additional observations from a re-analysis of the deposited data

Results flagged for a closer look

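Of 66 groups of samples checked (32 transcripts and their mean, in each treatment group), 6 had 1 sample far from the others, where a 5% rate would give 3.3 by chance. The measure is the gap to the nearest sample as a share of the group's whole range of log2 CPM, set against 0.829 for 4 samples and 0.71 for 5. Egr2 gave 2 of them, both at low counts: AM6545 B was highest (0.974 CPM against 0.773 to 0.795 CPM in the other AM6545 samples, a share of 0.88), and Vehicle A was lowest (0.404 CPM against 0.888 to 1.02 CPM, 0.84). Vehicle A was also lowest for Plk2 (237 CPM against 348 to 395 CPM, 0.75) and for Inhba (7.68 CPM against 9.37 to 9.93 CPM, 0.772). Arc was highest in Vehicle E (114 CPM against 74.2 to 83.5 CPM, 0.725). Nptx2 was highest in Vehicle B (17.1 CPM against 10.3 to 11.9 CPM, 0.717).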

How the results depend on the processing

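No transcript of the 32 had an adjusted p under 0.05 in any of the 18 alternatives, and the smallest adjusted p among them was 0.320 (Nptx2 and Rgs2, without Vehicle B). Over all genes, 0 to 1 passed the threshold when a sample was left out; the 1 was Gm14308, without AM6545 A. Genes at an unadjusted p under 0.05 numbered 1047, and from 496 (without Vehicle A) to 1848 (without AM6545 E), with 1797 without Vehicle B, 642 without AM6545 B, 663 without AM6545 A, 690 without AM6545 C and 1823 by limma-voom with sample weights. Of the 32 transcripts, 1 was at that level, beside 7.21% of all genes tested. Without AM6545 E there were 5 (Egr4, Junb, Plk2, Rgs2 and Tiparp), beside 12.6% of all genes. Without Vehicle B there were 3 (Nptx2, Rgs2 and Tiparp), beside 12.5%. By limma-voom with sample weights there were 3 (Jun, Rgs2 and Tiparp), beside 12.6%. With both AM6545 E and Vehicle A left out, an alternative chosen after seeing the data, there were 3 (Egr4, Plk2 and Rgs2), beside 8.59%. Of 574 fold changes recomputed, 52 changed sign, 37 of them with 1 sample left out; 15 transcripts never changed sign, Rgs2 among them, and the cause was not tested for the others. All values that follow are log2 fold changes. With total counts in place of TMM, Egr1 was at -0.0074. By limma-voom with sample weights, Fosl2 was at -0.0036, Nr4a1 at -0.0064 and Dusp5 at 0.013. With the length trend removed, Egr1 was at -0.041, Npas4 at -0.010 and Trib1 at -0.021. With both AM6545 E and Vehicle A left out, Nr4a1 was at -0.0029, Dusp1 at 0.0069, Ier5 at 0.055 and Pcsk1 at -0.093. With the letter of the sample as a replicate block, Egr1 was at -0.041, Nr4a1 at -0.086, Npas4 at -0.12 and Trib1 at -0.021. In that fit 0 genes passed the threshold. An unadjusted p under 0.05 was found for 2 of the 32 (Rgs2 and Tiparp), beside 5.23% of all genes tested. The letters were not taken to pair samples: deviations of same-letter samples correlated at -0.018 (A), 0.037 (B), 0.34 (C) and -0.021 (E). Of the AM6545 samples, only C correlated best with its own letter. AM6545 A (0.086) and B (0.14) correlated best with Vehicle E, and AM6545 E with Vehicle A (0.35). With each sample left out in turn, Fos ran from -0.25 to 0.0027, Egr1 from -0.074 to 0.068, Nr4a1 from -0.10 to 0.15, Nr4a2 from -0.042 to 0.16 and Npas4 from -0.33 to 0.19. The phosphatases ran from -0.12 to 0.051 (Dusp1), -0.21 to 0.066 (Dusp5) and -0.046 to 0.088 (Dusp6), Sik1 from -0.28 to 0.069 and Trib1 from -0.062 to 0.12. Btg2 ran from -0.077 to 0.011, Ier2 from -0.060 to 0.29, Ier5 from -0.13 to 0.097, Arc from -0.091 to 0.081, Pcsk1 from -0.054 to 0.14 and Ptgs2 from -0.069 to 0.23. Depth limits Fosb, Egr2, Atf3 and Maff, each with at most 34 counts a library.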
